A study of Mus musculus with 6 samples.

Results

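Skeletal muscle genes were followed across 3 mammary tumors with acinar histology, which had arisen in *K14-cre*; *ApcCKO/+* mice, and 3 control mammary glands taken from age-matched mice without *cre*. The mice were of a mixed strain background, and the *K14* promoter directs Cre to progenitor cells of the mammary epithelium. RNA of each sample was hybridized to 1 Affymetrix array, and the labels call the 3 samples of a group biological replicates without saying whether each came from its own animal, so the p-values below measure the spread between these samples. The 38 genes were chosen as a module of skeletal muscle, and for each gene the probe set (a group of short oligonucleotides that reads 1 transcript) with the highest mean log2 signal among those with 1 gene symbol was used. All 38 genes were matched, and all 38 were among the 12518 genes tested, for which the signal had to reach 100 in 3 or more samples. A gene that is high in only 3 samples passes that filter, so passing says little about the other 3.

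Skeletal muscle fibers contract when myosin heads pull on actin filaments within sarcomeres, repeating units that are bounded by Z discs and held in register by the giant proteins titin and nebulin. Calcium released from the sarcoplasmic reticulum binds troponin C and lets the heads attach, and calcium pumps then return it to the store. Fast and slow fibers build this machinery from different myosin, troponin and binding protein isoforms, and fast fibers draw more on phosphocreatine and glycogen. The mammary gland has no skeletal muscle of its own, although it lies against the muscle of the body wall. In RNA from whole tissue, fewer muscle cells and less RNA per muscle cell cannot be told apart.

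Every role group held genes with strong signal in some samples and almost none in others, and the samples of each group differed among themselves. *Acta1*, skeletal α-actin of the thin filament, read 12849.8, 469.9 and 197.7 in tumors 1, 2 and 3, against 2498.3, 29065 and 17955 in control glands 1, 2 and 3. *Ckm*, the muscle creatine kinase that regenerates ATP, read 4117.3, 305.0 and 133.9 in the tumors, against 499.3, 25224 and 6930.6 in the control glands. For these probe sets control glands 2 and 3 were the highest samples, tumor 1 followed, and control gland 1 lay between tumor 1 and the other tumors. *Myh4*, the myosin heavy chain of the fastest fibers, read 4767.6, 75.4 and 2.4 in the tumors, against 1151.3, 31534 and 13685 in the control glands, in the same order of samples. A second *Ckm* probe set departed from it, with 79.3, 32.9 and 49.5 in the tumors, against 129.6, 608.6 and 168.2 in the control glands. Its tumor 1 lay below control gland 1, and it was called lower (adjusted p = 0.0296 by limma over all probe sets tested).

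The 250 bases before the annotated start of these 3 genes, and of a fast and a slow fiber troponin C gene whose signals differed in pattern, are shown because MyoD family factors bind E-boxes (CANNTG, among them CAGCTG) and serum response factor binds CArG boxes in muscle promoters. Sequences are from RefSeq on GRCm38.p6, each written 5′ to 3′ on the strand of its gene, with E-boxes and CArG boxes in capitals.
Acta1, chr8:123894776-123895025, minus strand: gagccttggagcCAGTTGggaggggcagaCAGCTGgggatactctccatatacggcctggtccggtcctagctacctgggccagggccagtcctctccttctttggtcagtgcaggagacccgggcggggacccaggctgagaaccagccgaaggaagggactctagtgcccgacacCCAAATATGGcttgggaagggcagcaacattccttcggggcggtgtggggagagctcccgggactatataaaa
Ckm, chr7:19410844-19411093, plus strand: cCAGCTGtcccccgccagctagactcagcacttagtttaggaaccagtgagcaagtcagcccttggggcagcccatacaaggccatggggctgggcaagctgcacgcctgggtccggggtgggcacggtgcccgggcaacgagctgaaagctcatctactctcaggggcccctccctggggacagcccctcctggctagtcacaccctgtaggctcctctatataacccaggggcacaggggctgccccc
Myh4, chr11:67237562-67237811, plus strand: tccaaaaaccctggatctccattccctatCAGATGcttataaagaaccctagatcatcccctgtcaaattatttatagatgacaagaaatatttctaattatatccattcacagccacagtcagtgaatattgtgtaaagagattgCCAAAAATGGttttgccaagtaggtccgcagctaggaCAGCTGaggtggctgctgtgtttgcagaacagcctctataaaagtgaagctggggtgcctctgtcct
Tnnc2, chr2:164779735-164779984, minus strand: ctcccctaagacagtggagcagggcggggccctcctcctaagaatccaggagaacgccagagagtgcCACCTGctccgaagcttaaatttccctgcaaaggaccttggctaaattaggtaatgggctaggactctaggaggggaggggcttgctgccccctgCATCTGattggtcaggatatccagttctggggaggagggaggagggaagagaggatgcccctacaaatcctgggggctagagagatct
Tnnc1, chr14:31208062-31208311, plus strand: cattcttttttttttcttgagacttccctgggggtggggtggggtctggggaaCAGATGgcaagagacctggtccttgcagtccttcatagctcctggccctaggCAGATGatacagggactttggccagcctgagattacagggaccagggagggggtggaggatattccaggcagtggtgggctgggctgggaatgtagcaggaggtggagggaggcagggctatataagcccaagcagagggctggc
RefSeq promoters were matched for 27 of the 38 genes. CAGCTG, which reads the same on both strands and is 1 form of CANNTG, was present in 14 of these 27 (51.9%). It was present in 14.7% of the 27025 genes with a promoter of the same length. The wider CANNTG, also searched on both strands, was in 22 of 27 (81.5%), against 69.3% of these 27025 genes. A CArG box was found upstream of *Acta1*, *Ldb3* and *Myh4* (3 of 27, against 1.62% of the 27025 genes). A MEF2 box was found upstream of *Myh1*, *Myh4*, *Pgam2*, *Pvalb* and *Ttn* (5 of 27, against 3.42%). These are matches of letters, and binding was not measured.

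Summed over the 38 genes, the signal was 76030, 7402 and 4520 in tumors 1, 2 and 3, against 15640, 460800 and 149100 in control glands 1, 2 and 3. Control gland 2 thus stood 29.5-fold above control gland 1 and 3.09-fold above control gland 3, and tumor 1 stood 10.3-fold and 16.8-fold above tumors 2 and 3. Tumor 1 also exceeded control gland 1 by 4.86-fold, so the groups overlapped. Gene by gene, control gland 2 was the highest sample for 37 of the 38 genes and tumor 3 the lowest for 31. Tumor 1 was above both other tumors for 37 genes, all but *Ldb3*, and above control gland 1 for 37, all but *Trdn*. The full order of control gland 2, control gland 3, tumor 1, control gland 1 and then tumors 2 and 3 held for 28 genes. Signals below 50, the level under which values were set to 50 for the tests, occurred for 10 genes in tumor 2, 22 in tumor 3 and 4 in control gland 1, and for none in tumor 1 or control glands 2 and 3.

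**Figure D1:**
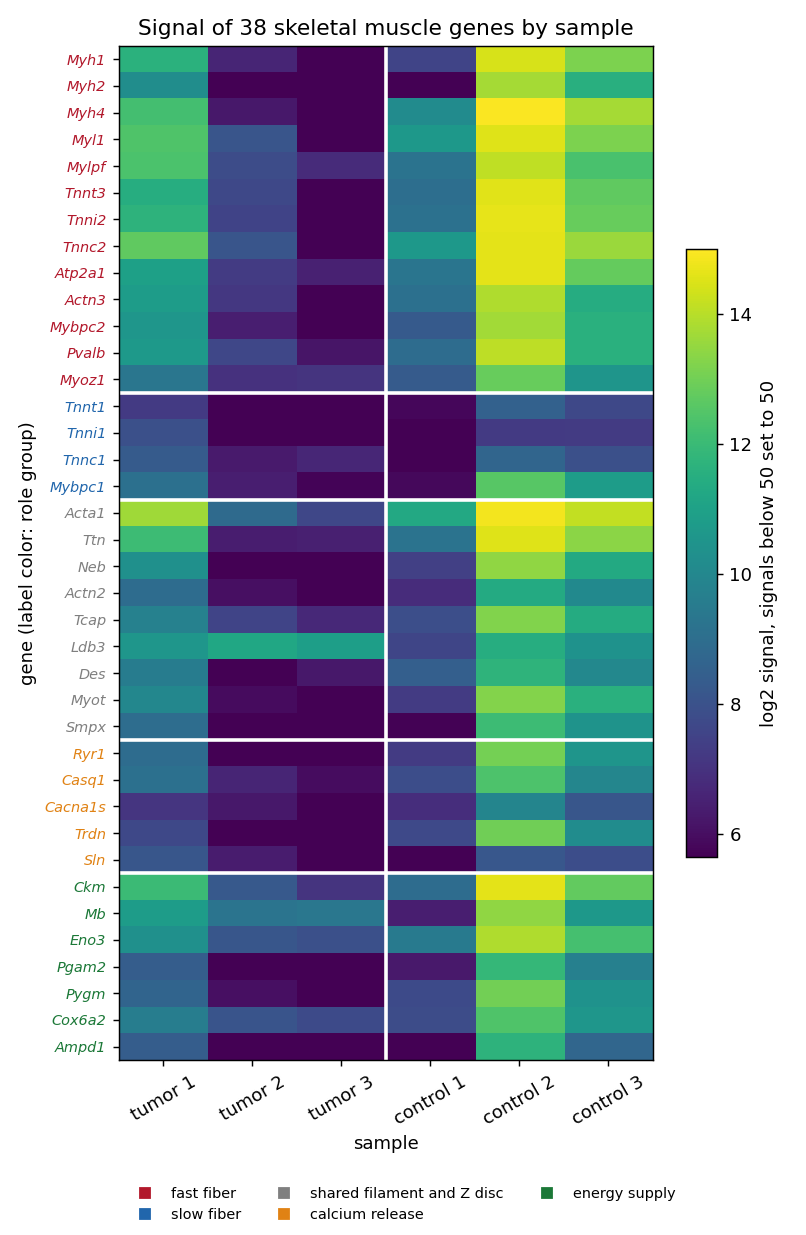
Heat map of the log2 signal of the 38 skeletal muscle genes (rows, grouped by role) in 3 tumors and 3 control glands (columns), with signals below 50 set to 50. Control gland 2 is the highest sample for 37 genes, and tumor 1 lies above tumors 2 and 3 for 37, all but *Ldb3*.

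The comparison asked whether muscle transcripts differed between tumors and control glands. The log2 fold change, tumor minus control, was below 0 for 37 of the 38 genes, against 46.8% of all genes tested, and its median was -3.03 over the 38 genes and 0.07 over all genes. At an adjusted p under 0.05 (limma with Benjamini-Hochberg adjustment over all genes tested), 1 gene, *Trdn*, was lower in tumors and 0 were higher, where 16.8% of all genes tested were called lower and 16.3% higher. At an unadjusted p under 0.05, 12 of the 38 were lower and 0 higher, where 21.5% of all genes tested were lower and 23.4% higher. The methods' t-test called 0 of the 38, where 920 of all genes tested were lower and 685 higher. Every tumor lay below every control gland for 1 of the 38 genes, against 23.1% of all genes. The count moved with control gland 1 and with tumor 1. On the same 12518 genes, 24 of the 38 were called lower without control gland 1 (14.2% of all genes) and 13 without tumor 1 (15.8% of all genes). Without any other single sample 0 were called. The shares of all genes were then 14.1% without control gland 2, 12% without control gland 3, 12.9% without tumor 2 and 13.5% without tumor 3. With the filter applied again to the 5 samples left, 23 of 38 were called lower without control gland 1 (11.6% of all genes), and 15 of the 30 then tested without tumor 1 (16.6%), the 8 left out having signals below 100 in control gland 1.

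**Figure D2:**
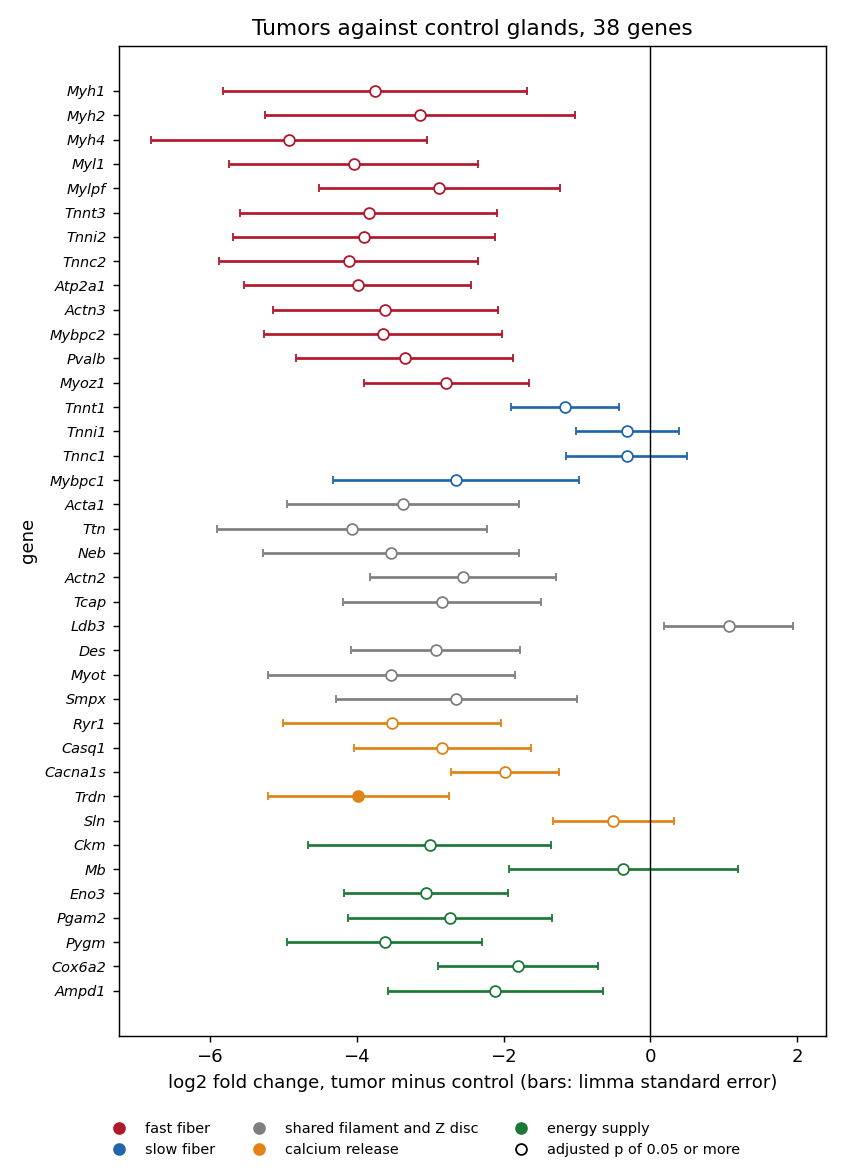
Log2 fold change of each of the 38 genes, tumor minus control, with bars of 1 standard error from limma (n = 3 tumors and 3 control glands). The filled point, *Trdn*, is the 1 gene with an adjusted p under 0.05, and *Ldb3* is the 1 gene above 0.

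The spread within each group was wide beside that of other genes. The 3 tumors spanned at least 4-fold for 32 of the 38 genes, against 3.59% of all genes tested, and the 3 control glands did so for 37, against 3.82%. Much of this lay in 1 sample of each group: without tumor 1 the other tumors spanned 4-fold for 3 genes, and without control gland 1 the other control glands did so for 13. The median range on the log2 scale was 3.35 among tumors and 5.19 among control glands for the 38 genes, against 0.60 and 0.54 for all genes. Of the 12 genes that were at least 16-fold higher in tumor 1 than in both other tumors, all 12 belonged to the 38, and 0 genes were so raised in tumor 2 or in tumor 3. Of the 53 genes at least 16-fold higher in control gland 2 than in control gland 1, 28 belonged to the 38 and another 8 to further muscle lists. The 13 genes that were 16-fold higher in control gland 1 held 0 of the 38. They included the milk casein genes *Csn1s1*, *Csn1s2a*, *Csn2* and *Csn3*.

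**Figure D3:**
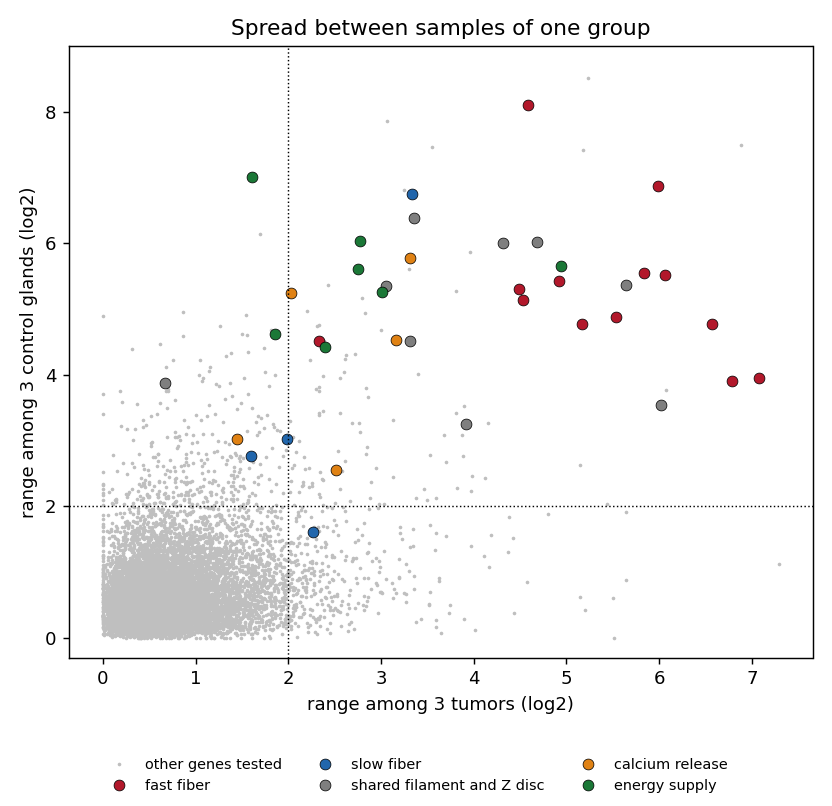
Log2 range among the 3 tumors (x axis) and among the 3 control glands (y axis) for every gene tested, with the 38 muscle genes colored by role group and dotted lines at a 4-fold range. Of the 38, 32 lie right of the vertical line and 37 above the horizontal line.

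Genes of fast fibers followed this order of samples. The 13 genes had a median log2 fold change of -3.75 (range -4.92 to -2.78), 0 passed the test, and all 13 spanned at least 4-fold within tumors and within control glands. Among the myosin heavy chains, *Myh4* differed by -4.92 ± 1.88 on the log2 scale (SE, adjusted p = 0.0820 by limma). *Myh1*, of fast fibers that lie between the other fast types, read 3175.2, 97.0 and 21.0 in tumors, against 189.1, 22027 and 9008.9 in control glands. *Myh2*, of fast oxidative fibers, read 1203.9, 13 and 9.5 in tumors, against 9.9, 13793 and 2962.6 in control glands. For *Myh2*, control gland 1 was as low as tumors 2 and 3, and its range among control glands, at least 276-fold, was the widest of the 38. The probe set of *Myh1* has the suffix _a_at, and whether its signal is shared among these near-identical myosins was not tested. Another *Myh1* probe set, with the suffix _x_at, read 21895.4 in control gland 2. A *Myh1* probe set without such a suffix read at most 44.6 in any sample.

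The fast light chains and the fast troponin complex repeated the pattern. *Myl1*, an essential light chain, read 5511.2, 279.9 and 42.7 in tumors, against 1590.1, 23778 and 9104.9 in control glands. *Mylpf*, the regulatory light chain, read 5200.9, 225.4 and 112.2 in tumors, against 591.8, 17409 and 5038.4 in control glands, so that tumor 1 lay just above control gland 3. Of the troponin subunits, *Tnnt3*, which anchors the complex to tropomyosin, read 2863.3, 204.7 and 3.8 in tumors, against 521.6, 24476 and 6689.1 in control glands. In each of these genes tumor 1 exceeded control gland 1, and tumors 2 and 3 lay below it. *Tnni2*, the inhibitory subunit, read 3339.7, 185.0 and 8.4 in tumors, against 559.2, 25527 and 7234.9 in control glands. *Tnnc2*, the calcium-binding subunit, read 6768.2, 278.7 and 3.7 in tumors, against 1597.6, 24799 and 12276 in control glands. The same held for *Atp2a1*, the calcium pump of fast fibers, with 2018.7, 153.3 and 90.2 in tumors, against 628.7, 24939 and 7118.5 in control glands. *Actn3*, *Mybpc2*, *Pvalb* and *Myoz1*, which code for a Z-disc actinin, a myosin-binding protein, a calcium buffer and a calcineurin-binding Z-disc protein, lay between 639.6 and 1794.7 in tumor 1, against 1456.4 to 17281 in control glands 2 and 3.

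Genes of slow fibers spanned a median range on the log2 scale of 2.13 among tumors and 2.89 among control glands, against 5.54 and 5.14 for fast fiber genes. Their median log2 fold change was -0.74 (range -2.65 to -0.31), and 0 of 4 passed the test. *Tnnc1*, the slow and cardiac troponin C, read 319.5, 80.7 and 101.3 in tumors, against 51.2, 414.8 and 241.9 in control glands. *Tnni1*, the slow inhibitory subunit, read 240.6, 7.6 and 7.3 in tumors, against 6.5, 151.3 and 152.5 in control glands, and was the 1 gene with its highest signal in tumor 1. For both, tumor 1 lay above control gland 3 and control gland 1 was among the low samples. *Tnnt1*, the slow troponin T, read 151.0, 29.2 and 7.0 in tumors, against 55.4, 375.5 and 202.4 in control glands. *Mybpc1*, the slow myosin-binding protein C, was the exception, with 544.3, 86.2 and 53.8 in tumors, against 56.8, 6133.5 and 1781.0 in control glands, a profile closer to that of the fast genes. The log2 fold changes were -0.33 ± 0.83 for *Tnnc1*, -0.31 ± 0.71 for *Tnni1*, -1.16 ± 0.74 for *Tnnt1* and -2.65 ± 1.68 for *Mybpc1* (SE), with adjusted p of 0.789, 0.761, 0.264 and 0.262 by limma.

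Tumor 1 was also set beside the control glands with the most muscle signal. The log2 signal of tumor 1 lay below that of control gland 2 by a median of 3.07 over the 13 fast genes and 0.85 over the 4 slow genes. Against control gland 3, the median differences were 1.12 and 0.01. *Mybpc1* went against its group, at 3.49 below control gland 2 and 1.71 below control gland 3. Further slow fiber genes were listed with earlier results known, and 0 of 7 passed the test. *Myh7*, the slow myosin heavy chain, read 295.0, 18.9 and 33.6 in tumors, against 26.4, 777.3 and 349.7 in control glands, and *Myl2*, the slow regulatory light chain, read 528.0, 12.9 and 36.2 in tumors, against 28.2, 808.7 and 313.9 in control glands. Tumor 1 lay below control gland 3 for *Myh7* and above it for *Myl2*. *Myl3*, another slow light chain, was furthest from passing, with 165.0, 181.1 and 180.0 in tumors, against 96.4, 276.1 and 165.0 in control glands. Many of these signals are close to 50, where set values compress a difference, and their part in this difference was not tested. With a floor of 100 in place of 50, *Tnni1* turned to 0.02 on the log2 scale.

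**Figure D4:**
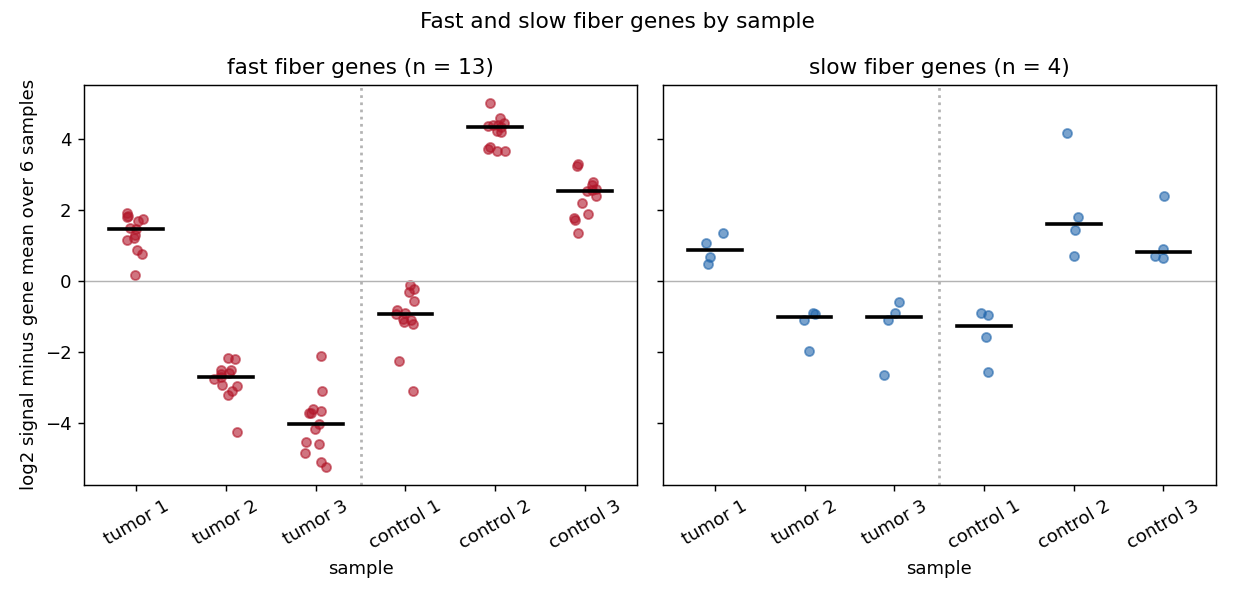
Log2 signal of each gene minus its mean over the 6 samples, for 13 fast fiber genes (left) and 4 slow fiber genes (right), in 3 tumors and 3 control glands, with bars at the median. The fast genes center on -4.03 in tumor 3 and 4.34 in control gland 2, the slow genes on -1.01 in tumor 3 and 1.61 in control gland 2.

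Of the 9 genes for filaments and Z discs shared by all fibers, 0 passed the test, and their median log2 fold change was -2.92. *Ttn*, which codes for titin, read 4261.1, 85.1 and 87.7 in tumors, against 584.5, 24000.2 and 10536 in control glands (-4.06 ± 1.84 on the log2 scale, SE, adjusted p = 0.128 by limma). *Neb*, *Actn2*, *Tcap*, *Des*, *Myot* and *Smpx* lay in tumor 1 between 497.2 and 1285.7 and in control gland 2 between 2646.2 and 11267, in the order described above. *Ldb3*, a Z-disc protein that binds α-actinin, departed from it. Its chosen probe set read 1498.4, 2377.0 and 1916.5 in tumors, against 192.6, 2819.8 and 1375.9 in control glands, a difference of 1.06 ± 0.88 (SE, adjusted p = 0.389). Tumors 2 and 3 were thus above tumor 1, and control gland 1 was the single low sample. A second probe set read 322.7, 86.7 and 10.7 in tumors, against 85.9, 3405.4 and 847.9 in control glands. That is the order of the other muscle genes, except that tumor 2 and control gland 1 were nearly equal. Another *Ldb3* probe set read 260.9, 506.2 and 426.4 in tumors, against 119.6, 276.6 and 207.4 in control glands. *Ldb3* was the 1 gene of 9 with several probe sets tested whose probe sets differed in sign, and 49 of the 51 probe sets tested for the 38 genes were below 0. Of the 51, 2 were called lower, the chosen one of *Trdn* and the second one of *Ckm*.

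The calcium release genes held the 1 gene that passed. *Trdn* codes for triadin, which tethers calsequestrin to the ryanodine receptor. It read 203.6, 11.9 and 8.4 in tumors, against 210.7, 7974.8 and 1181.5 in control glands, a log2 fold change of -3.98 ± 1.23 (SE, adjusted p = 0.0432 by limma). The groups did not overlap, but tumor 1 and control gland 1 were nearly equal. The call held under 8 of 17 other settings, with adjusted p between 0.0113 and 0.161, and a second *Trdn* probe set read 315.3, 50.1 and 3.5 in tumors, against 92.2, 4683.9 and 705.6 in control glands, where tumor 1 was above control gland 1. *Ryr1*, the release channel, *Casq1*, its luminal calcium buffer, and *Cacna1s*, the voltage sensor, read 136.6 to 550.3 in tumor 1 and 949.9 to 8348.9 in control gland 2, and none passed. *Sln*, a small inhibitor of the calcium pump, read 285.8, 81.9 and 7.3 in tumors, against 18.9, 292.0 and 229.5 in control glands, so that tumor 1 nearly equaled control gland 2.

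Among the 7 genes of energy supply, 0 passed the test and the median log2 fold change was -2.73. *Eno3*, the muscle enolase of glycolysis, read 1295.5, 282.6 and 246.0 in tumors, against 709.9, 15234 and 4781.2 in control glands (-3.06 ± 1.12, SE, adjusted p = 0.0725 by limma). *Mb*, which codes for the oxygen-binding myoglobin, read 1822.1, 598.8 and 651.9 in tumors, against 87.2, 11184 and 1572.0 in control glands. For *Mb* every tumor lay above control gland 1, and the difference was -0.37 ± 1.56 (SE, adjusted p = 0.872). In tumors 2 and 3 the signal was at least 200 in both for 4 of the 38 genes, *Mb*, *Ldb3*, *Eno3* and *Cox6a2*, the last coding for a muscle subunit of cytochrome c oxidase. *Pgam2* and *Pygm*, of glycolysis and glycogen breakdown, and *Ampd1*, of purine nucleotide turnover, lay between 336.3 and 403.6 in tumor 1, against 3277.1 to 8258.9 in control gland 2.

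Of 72 further muscle genes, 45 were tested, and 9 were lower in tumors and 0 higher, with a median log2 fold change of -1.59. The share called lower was close to the 16.8% over all genes tested. The dystrophin complex, which links the fiber to its matrix, held 4 of these among 6 tested. *Lama2*, a laminin chain, read 263.3, 106.9 and 11.2 in tumors, against 726.4, 1113.5 and 969.2 in control glands, and *Sgcb*, a sarcoglycan, read 510.1, 434.5 and 434.0, against 1078.9, 1913.2 and 1246.3. For these genes control gland 1 lay above every tumor, and *Slc2a4*, the insulin-responsive glucose transporter, which fat also expresses, did likewise at 717.0, 453.6 and 421.2 in tumors, against 1679.7, 2352.5 and 2315.4 in control glands. Control gland 1 was also above every tumor for all 7 fibroblast and matrix genes and all 6 endothelial genes below. Which cells held these transcripts was not tested. *Dag1*, dystroglycan, was furthest from passing in the dystrophin complex list, with 3153.2, 1876.0 and 1492.4 in tumors, against 2133.9, 2746.6 and 2678.4 in control glands. *Phka1*, a subunit of phosphorylase kinase, read 168.7, 98.4 and 183.1 in tumors, against 376.1, 2621.4 and 644.5 in control glands. *Cox8b*, of cytochrome c oxidase, read 382.9, 680.4 and 1557.0 in tumors, against 9946.8, 7544.4 and 2125.8 in control glands, with control gland 1 the highest, as for the brown fat sum below. *Jph1*, which joins the reticulum to the surface membrane, read 155.6, 120.6 and 65.6 in tumors, against 201.9, 1607.2 and 443.9 in control glands, and was the 1 of 6 further calcium handling genes that passed (adjusted p = 0.0453 by limma). Of 10 further sarcomere genes and 2 neuromuscular junction genes tested, 0 passed. The regulator *Mef2c* was lower in tumors, with 861.0, 711.7 and 290.9, against 1694.5, 3065.1 and 1695.8 in control glands, and *Myf6*, of adult fibers, read 259.8, 1.7 and 51.4 in tumors, against 25.2, 548.2 and 213.5 in control glands and did not pass. The embryonic and neonatal myosins *Myh3* and *Myh8*, the satellite cell factor *Pax7* and *Myf5* did not reach 100 in any sample. Of the same regulatory and satellite cell list, *Cdh15* read 204.0 in control gland 2 and 108.4 in tumor 1, and *Myog* 121.7 in tumor 1. *Myod1* read 108.0, 21.7 and 39.8 in tumors, against 28.5, 167.5 and 102.8 in control glands, and did not pass.

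The 15 genes outside the 38 whose log2 values, centered on their mean over the 6 samples, lay nearest to the median profile of the 38 included *Ckmt2*, the mitochondrial creatine kinase, *Cmya5*, *Myhas*, *Rtn2* and *Hspb6*, at mean absolute differences of 0.378, 0.383, 0.416, 0.443 and 0.476. Of the 15, 7 were in a further muscle list. The median difference was 0.528 for the 38 genes and 2.22 for the other genes tested. The 38 are nearer by construction, because the profile is their own median, so this gap tests nothing. The genes farthest from their own median profile were *Ldb3*, *Tnni1*, *Mb*, *Tnnc1* and *Sln*, at 2.29, 1.43, 1.36, 1.35 and 1.26.

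Of the 6 marker lists summed here for other cells, only the fibroblast and matrix sum ordered both groups as the muscle sum did. The medians of their log2 signals, centered on the gene mean, gave another order of control glands 1, 2 and 3, at 1.91, 2.14 and 1.89. *Dcn* and *Pdgfra* were highest in control gland 1 and *Dpt* in control gland 3. White adipocyte genes were lower in tumors for 9 of 9 genes, and their summed signal was 13220, 14070 and 3573 in tumors, against 209300, 174700 and 154600 in control glands. Among control glands, control gland 1 had the highest sum but the lowest median of centered log2 signals. That median was 2.43, against 3.11 and 2.99 in control glands 2 and 3. Brown fat genes, of which 3 of 6 were lower, summed to 1339, 1188 and 478.7 in tumors, against 29280, 8022 and 3138 in control glands. Control gland 1, the control gland lowest in muscle signal, thus had the highest sum. Of these genes, *Prdm16* and *Ppargc1a* were higher in control gland 2 than in control gland 1. Luminal epithelial genes were higher in tumors for 6 of 6 and summed to 64530, 83130 and 84890 in tumors, against 18320, 9788 and 22340 in control glands. Tumor 1 and control gland 2, the highest of their groups in muscle signal, were the lowest of their groups in this sum. Smooth muscle and myoepithelial genes, of which 1 of 9 was lower and 2 were higher, summed to 32170, 25810 and 26730 in tumors, against 17640, 20130 and 21710 in control glands. Fibroblast and matrix genes were lower in tumors for 7 of 7 and summed to 14430, 10220 and 2275 in tumors, against 62510, 76520 and 69880 in control glands, with tumor 1 and control gland 2 again the highest of their groups. Endothelial genes were lower for 6 of 6 and summed to 1657, 1136 and 765.8 in tumors, against 5191, 5372 and 6593 in control glands. Of 9 cardiac muscle genes, 5 were tested. *Ryr2*, the cardiac release channel, was lower in tumors, with 43.9, 14.4 and 7.7, against 105.4, 101.5 and 102.3 in control glands, and *Tnnt2*, the cardiac troponin T, was higher, with 181.6, 105.6 and 134.4, against 84.7, 49.8 and 60.2 in control glands. The 9 summed to 966.8, 726.9 and 644.6 in tumors, against 913.3, 1178 and 872.6 in control glands. *Myh6*, *Myl7* and *Nppa* read at most 53.7 in any sample, but other heart muscle genes of the list read higher. *Tnni3*, the cardiac troponin I, did not reach the filter and was highest in tumor 3 at 173.9. *Actc1*, *Mybpc3* and *Myl4* peaked at 288.6 in tumor 1, 183.2 in control gland 1 and 633.3 in control gland 2. RNA integrity, gauged by the actin signal near the 3′ end over that near the 5′ end (lower where RNA is more intact), gave 1.44, 2.20 and 2.32 in tumors, against 2.30, 1.46 and 1.81 in control glands, with the lowest ratios in the 3 samples richest in muscle signal. The part of these values in the muscle result was not tested.

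**Figure D5:**
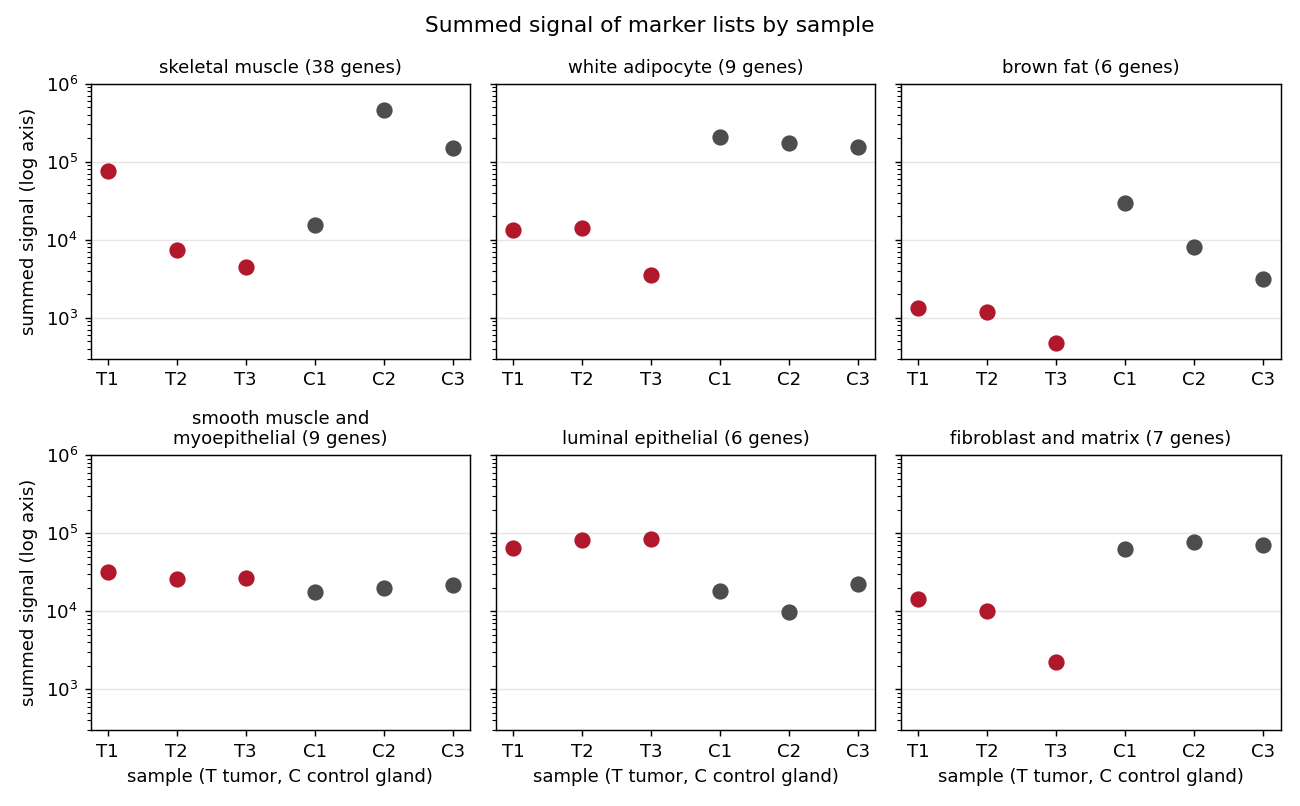
Summed signal of 6 gene lists on a log axis in tumors (T1 to T3, red) and control glands (C1 to C3, gray), 1 point per sample. The skeletal muscle sum overlaps between groups, from 4520 to 76030 in tumors and from 15640 to 460800 in control glands, whereas the white adipocyte and luminal epithelial sums do not.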

How the data were processed

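Total RNA of 3 acinar mammary tumors and 3 control mammary glands was measured on 1-color Affymetrix mouse arrays. The deposited values are linear intensity signals, which the authors computed with MAS 5.0 and brought to a common target on each array. The number of arrays limits the precision. The median signal of an array lay between 124.3 and 170.7.

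Of 45101 probe sets, 64 controls were left out, and the 34945 with 1 gene symbol in the platform annotation were used (932 had several, 9160 had none). A floor of 50 was put under the signals before taking log2. Probe sets that reached 100 in 3 or more of the 6 samples were kept, and each gene was represented by its probe set of highest mean log2 signal, which gave 12518 genes. The 2 groups were fitted with limma 3.58.1 (lmFit, eBayes; R 4.3.3) in 2-sided tests, p-values were adjusted (Benjamini-Hochberg) across all genes tested, and calls needed an adjusted p under 0.05 and no minimum fold. Ranges whose lowest signal is below 50 are taken against 50 and so are lower bounds, while a fitted fold change of a gene with signals below 50 depends on the floor and is no bound. Fits were tested on simulated data.

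The members and gene lists were chosen with earlier results of these data known. Values of each sample are given for genes that were called, the 12 genes with the highest mean signal, the 4 slow fiber genes, the 4 genes with the widest range among control glands, and a few genes of the further lists. *Sln*, *Myl2*, *Myh7*, *Myf6* and the other probe sets of *Ldb3*, *Trdn*, *Ckm* and *Myh1* were added after their values were seen. So were *Tnni3*, *Actc1*, *Mybpc3*, *Myl4*, *Cdh15*, *Myog*, *Myod1* and *Myf5*. The 16-fold comparisons between single samples were also chosen then.

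Other settings were a floor of 16 or 100, 50 added to the signal in place of the floor, arrays normalized by quantiles or to equal medians, no filter or one at 200, a trend in the variance, a block for the replicate number, leaving out single arrays (with the filter applied again or the genes kept), leaving out probe sets open to cross-hybridization, averaging probe sets, a 2-fold limit, and the methods' t-test (a statistic of at least 4.5 and a 2-fold ratio). Of the 38 genes, 8 were read by probe sets with the suffix _a_at. That suffix was counted here, with _s_at and _x_at, as open to cross-hybridization, which was not tested. The detection calls were not used here.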

Additional observations from a re-analysis of the deposited data

How the results depend on the processing

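Of the 38 muscle genes, 0 were called lower with a floor of 100, with quantile normalization, with no filter, with the replicate number as a block, with the mean over probe sets and with the methods' t-test, against 1 in the settings reported. Leaving out 1 array at a time gave 0 to 23 (23 without control replicate 1, 15 without tumor replicate 1), and 0 to 24 with the gene set kept (24 without control replicate 1, 13 without tumor replicate 1), a setting chosen after seeing the data. Fewer of the 38 were tested in some settings: 35 with a filter at 200, 31 without probe sets that may cross-hybridize, and 30 each without tumor replicate 1, control replicate 2 or control replicate 3, where the others gave no value. Of all genes, 920 were lower and 685 higher by the methods' t-test, 1329 were higher with a 2-fold limit, and leaving out 1 array gave 1151 to 2012 lower and 1241 to 1545 higher. With equal array medians the median log2 fold change of all genes moved by 0.24, with 1665 lower and 3026 higher, against 2098 lower and 2045 higher as reported, and no muscle gene changed direction. Of the further muscle genes, 3 were lower with no filter, 2 by the methods' t-test and 4 to 19 with 1 array left out. The count of muscle genes with a 4-fold range was 3 to 32 among tumors and 13 to 37 among control glands with 1 array left out, chosen after seeing the data. It was 3 without tumor replicate 1 and 13 without control replicate 1.

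Some small fold changes reversed. *Tnni1* was 0.020 with a floor of 100, and between -0.848 and 0.065 with 1 array left out. *Ldb3* was -0.138 as the mean over probe sets. With 1 array left out, *Ldb3* lay between -0.054 (without control replicate 1) and 1.88, *Tnnc1* between -1.20 and 0.307 (without control replicate 2), *Sln* between -1.30 and 0.032 (without tumor replicate 3), and *Mb* between -2.23 and 1.27 (without control replicate 2). The cause was not tested.

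The replicate numbers did not pair the samples: deviations of samples with the same number correlated at -0.22, 0.02 and 0.04 over genes. With the replicate block, 1860 genes were lower and 1630 higher, and 0 of the 38 were called. Signals near or below 50 limit what can be said of tumors 2 and 3.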
